A study of Mus musculus with 18 samples.

Results

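The major urinary proteins (Mup) are small secreted lipocalins that bind volatile pheromones and carry them into mouse urine. They are made mainly by hepatocytes, most abundantly in adult males, and several members are also made in salivary, lacrimal or nasal glands. In adult liver their transcription is known to depend on pulsatile growth hormone acting through Stat5b, and thyroid hormone, glucocorticoid and androgen are also known to raise it. The genes Mup1 to Mup5 were taken as listed members of this family. A probe was assigned to a gene where its accession matched the current RefSeq symbol. Of the 5 genes, 4 had a probe, which was 1 probe each, out of 16535 genes with a matched probe on the array. Mup1 was read by A_51_P461703 (NM_031188), Mup3 by A_52_P232508 (NM_001039544), Mup4 by A_51_P266883 (NM_008648) and Mup5 by A_52_P412506 (NM_008649). Mup2 and the other 17 numbered genes of the family were matched by no probe and are not analysed here.

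The livers were from male C57BL/6 pups at postnatal day (PND) 15. In the control group the dams with their litters had sugar water. In the hypothyroid group the dams with their litters had the same water with 0.05% methimazole (MMI) and 1% perchlorate from PND 12, both of which block thyroid hormone synthesis. Each group had 5 pups. By the methods, pups of both groups had a PBS injection some hours before sacrifice, and 1 male was taken per litter, so p-values measure the spread between pups of separate litters. Labelled cRNA of each liver was hybridised on a 2-colour array with a universal mouse reference RNA, a commercial pool, so that each value is a log2 liver/reference ratio and shows no absolute level. MicroRNAs were measured in 4 samples per group on TLDA cards, which read no Mup transcript.

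In the RefSeq gene order the 22 numbered Mup genes and 22 Mup pseudogene symbols lay together on chromosome 4, from Mup4 to Mup21, with 2 other genes between them. Old symbols have been passed around within the cluster. The names Mup1 and Mup2 were each listed as synonyms of 2 other present members, and Mup3, Mup4 and Mup5 of 1 each, so the probes are named here by accession. RefSeq promoter sequences (GRCm38.p6) were matched for 3 of the 5 members, Mup2, Mup3 and Mup4. Their last 150 bases before the annotated start are shown because they show how alike the copies are, including the pair with probes, Mup3 and Mup4. Capitals mark the TATA motif TATATAA and, in Mup4, the half-site AGGTCA.
Mup2 (chr4:60139857-60140006, minus strand): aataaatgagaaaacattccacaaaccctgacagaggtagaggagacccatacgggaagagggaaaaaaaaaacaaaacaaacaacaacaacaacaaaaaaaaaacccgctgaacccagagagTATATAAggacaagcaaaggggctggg
Mup3 (chr4:62087318-62087467, minus strand): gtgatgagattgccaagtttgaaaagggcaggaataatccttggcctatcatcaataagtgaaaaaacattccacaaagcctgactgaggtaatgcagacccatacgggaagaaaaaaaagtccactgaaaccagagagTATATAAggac
Mup4 (chr4:59960668-59960817, minus strand): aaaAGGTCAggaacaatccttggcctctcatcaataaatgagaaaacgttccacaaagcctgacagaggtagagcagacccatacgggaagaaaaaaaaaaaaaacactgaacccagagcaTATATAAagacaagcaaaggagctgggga
Over the 250 bases before the start, 88.8% of 196 aligned bases were identical between Mup2 and Mup3. The identity was 91.2% of 215 bases for Mup2 and Mup4 and 88.6% of 229 bases for Mup3 and Mup4. Over all 91 pairs of the 14 numbered Mup genes with a promoter sequence, identity ran from 82.4% to 100%. TATATAA was found on either strand in 11 of the 14, against 3.04% of 32851 promoters of this length. AGGTCA, the half-site bound by thyroid hormone receptors and other nuclear receptors, was found in 1 of the 14, against 14% of all promoters on either strand. TTCNNNGAA, the palindromic core of a Stat5 site, was found in none of the 14 windows, against 7.02% of all promoters. The motifs did not overlap, and a match describes letters only. Each value below is that of a probe named for one gene. Whether transcripts of other copies bind the same probe was not tested.

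The labels and methods put liver in Cy5 on every array, but on slide 141 (control 832 and hypothyroid 576) the ratios as labelled correlated with those of the other slides at r = -0.972 and r = -0.978. The direction of these arrays is therefore not settled by the labels. Their channels were exchanged for all values below, and the values with the dyes as labelled or without the slide are given beside the test. Control 616 correlated with the mean of other slides at r = 0.88, against 0.972 to 0.987 for the other 9 arrays. Between 75.9% and 85.5% of probes were above the background limit in the liver channel. All 8 hepatocyte markers with a probe were above the limit on all 10 arrays, and the mean log2 liver/reference of this list was 2.66 to 4.83.

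The probe of Mup3, a member made in liver, was clear of background in both channels. The liver channel was well above background on 5 of 5 control and 5 of 5 hypothyroid arrays by the flag of the scanner software, and so was the reference channel. Its log2 liver/reference ratio in the controls was 1.99 for pup 881, 2.38 for 832, 1.56 for 522, 2.12 for 616 and 1.50 for 391. In the hypothyroid pups it was 1.51 for 891, 1.23 for 576, 1.62 for 311, 1.16 for 723 and 0.88 for 626. Pups 576, 723 and 626 lay below every control, and 891 and 311 overlapped the lower controls. The mean was 1.91 ± 0.37 (SD, n = 5) in controls and 1.28 ± 0.29 (SD, n = 5) in hypothyroid pups. The difference was -0.63 on the log2 scale (SE 0.19, 95% interval -1.04 to -0.22), which is 1.55-fold lower. The unadjusted p in limma was 0.00655, which ranked 438 of 32074 probes tested, and the p adjusted by Benjamini-Hochberg was 0.479, so it did not pass the threshold of 0.05.

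Mup1 encodes one of the abundant adult urinary isoforms. Its log2 liver/reference ratio in the controls was 1.43 for pup 881, 1.65 for 832, 0.74 for 522, 0.74 for 616 and 0.83 for 391. In the hypothyroid pups it was 1.26 for 891, 0.59 for 576, 0.17 for 311, 0.26 for 723 and 0.20 for 626. Thus 4 of 5 hypothyroid pups lay below every control, and pup 891 lay above 3 of the controls. The mean was 1.08 ± 0.43 (SD, n = 5) in controls and 0.50 ± 0.46 (SD, n = 5) in hypothyroid pups. The difference was -0.58 (SE 0.25, 95% interval -1.13 to -0.04), or 1.50-fold lower. It had an unadjusted p of 0.0381 and an adjusted p of 0.657 in limma. The Mup1 probe was dim. In the liver channel 5 of 5 control and 3 of 5 hypothyroid spots were flagged as well above background, the exceptions being pups 311 and 723, and in the reference channel 0 of 10 were. The denominator of the Mup1 ratio is therefore only a bound, and the size of the difference moved with the processing. It was 1.59-fold without background correction, and 1.75-fold or 1.865-fold with a smaller background offset of 16 or 1. With the processed signals of the scanner software, which were not loess-normalized here, it was 3.27-fold (adjusted p 0.708 in limma, range over 25 alternatives 0.426 to 1).

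Mup4 is known for expression in nasal and glandular tissue as well as liver. Its log2 liver/reference ratio in the controls was 1.25 for pup 881, 1.28 for 832, 0.73 for 522, 0.59 for 616 and 1.05 for 391. In the hypothyroid pups it was 1.00 for 891, 0.75 for 576, 0.56 for 311, 0.73 for 723 and 0.64 for 626. Only 311 lay below every control, and the other 4 hypothyroid pups lay within the control range. The mean was 0.98 ± 0.31 (SD, n = 5) in controls and 0.74 ± 0.17 (SD, n = 5) in hypothyroid pups, a difference of -0.25 (SE 0.14, 95% interval -0.56 to 0.07) with an unadjusted p of 0.113 and an adjusted p of 0.728 in limma. Liver and reference channels were well above background on all 10 arrays.

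Mup5, whose product is best known from salivary gland, was at the edge of detection. Its log2 liver/reference ratio in the controls was 0.17 for pup 881, 0.19 for 832, -0.04 for 522, 0.07 for 616 and 0.03 for 391. In the hypothyroid pups it was 0.08 for 891, 0.05 for 576, 0.05 for 311, 0.03 for 723 and 0.12 for 626, all inside the control range. The mean was 0.08 ± 0.10 (SD, n = 5) in controls and 0.07 ± 0.04 (SD, n = 5) in hypothyroid pups. The difference was -0.01 (SE 0.063, 95% interval -0.15 to 0.12), with an adjusted p of 0.968 in limma. Of the liver spots, 3 of 5 in controls and 2 of 5 in hypothyroid pups carried that flag, and of the reference spots 2 and 1, so a ratio near 0 here is that of a pair of signals close to background.

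**Figure D1:**
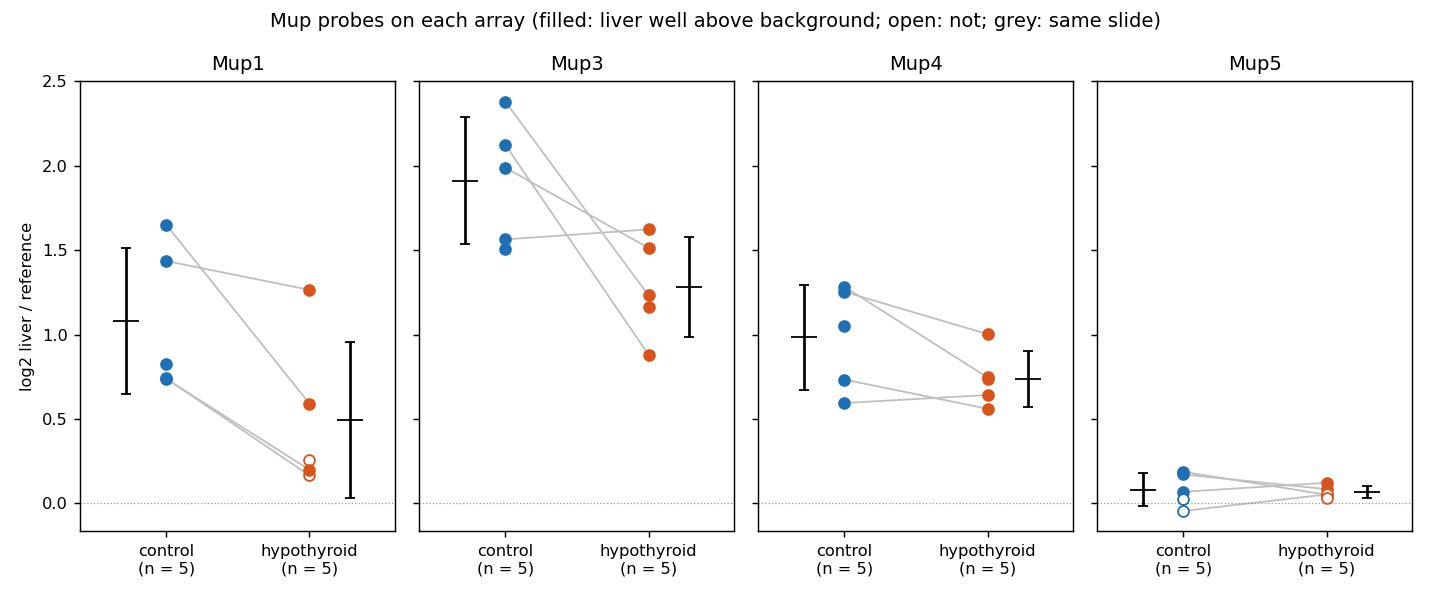
The log2 liver/reference ratio of each of the 4 Mup probes on each array, with control pups in blue and hypothyroid pups in orange. Filled points were well above background in the liver channel and open points were not, grey lines join the arrays of one slide, and black bars are the group mean ± SD (n = 5). For Mup1 4 of 5 and for Mup3 3 of 5 hypothyroid pups lie below every control.

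The background limit of each array was set from its negative control spots, as the methods describe. All 4 probes were above it in the liver channel on all 10 arrays. The liver signal of the Mup3 probe was 4.39 to 12.3 times the limit in controls and 3.90 to 5.12 times in hypothyroid pups. For Mup1 it was 1.36 to 2.78 times the limit in controls and 1.04 to 2.20 times in hypothyroid pups. For Mup4 it was 1.68 to 5.20 and 2.56 to 3.37 times, and for Mup5 1.04 to 1.32 and 1.05 to 1.31 times. No spot of the 4 probes was saturated or carried an outlier flag. After subtraction of the local background, the Mup1 liver signal on the 3 arrays with the lowest ratios was 18, 19.5 and 20 intensity units (pups 311, 723 and 626). It was 42 to 177.5 units in the controls, 127 units in pup 891 and 31 units in pup 576. For pup 576 and control 832 (93 units) liver was taken from the exchanged channel, so their units are not on the same scale. The arrays of pups 311, 723 and 626 therefore held little Mup1 signal above their surroundings, and the number of arrays limits the precision.

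**Figure D2:**
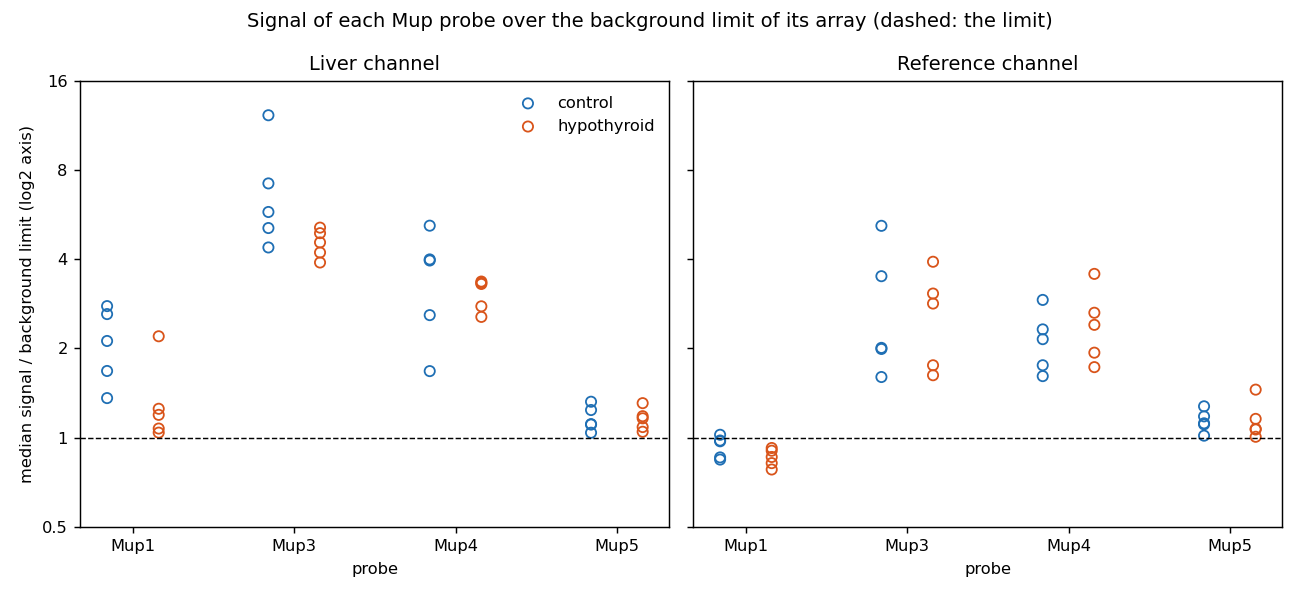
Median signal of each Mup probe divided by the background limit of its array, in the liver and the reference channel, on a log2 axis, with 1 point per array and the limit as a dashed line. The reference signal of Mup1 lies between 0.78 and 1.02 times the limit, while both channels of Mup3 and Mup4 lie above it on all arrays.

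Of the 4 Mup probes, 0 had an adjusted p below 0.05, and over all probes 2 of 32074 (0.00624%) had one. Without adjustment 2 of the 4 were lower in hypothyroid pups at p below 0.05, Mup1 and Mup3, where 4.08% of all probes were. The groups overlapped for all 4, and over all probes 2.07% had groups that did not overlap. The median difference of the 4 probes was -0.41, beside -0.01 over all probes tested. With 4 probes of one family on shared arrays, these counts describe the probes and are not separate tests.

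Of the 6 slides, 4 carried a control and a hypothyroid pup, so the difference was also read within slides. For Mup1 it was -0.17 on slide 139, -1.06 on slide 141, -0.57 on slide 136 and -0.54 on slide 100, lower in the hypothyroid pup on all 4. For Mup3 it was -0.48, -1.15, 0.06 and -1.24 in the same order, lower on 3 of 4. For Mup4 it was -0.25, -0.54, -0.17 and 0.05, also lower on 3 of 4. The Mup5 probe had within-slide differences of -0.09, -0.14, 0.10 and 0.05, with no common direction. With slide as a fixed block the Mup1 difference was -0.59 (unadjusted p 0.00901, adjusted p 0.698 in limma) and the Mup3 difference -0.70 (unadjusted p 0.0263, adjusted p 0.698).

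The slide with exchanged channels gave one of the 2 largest within-slide differences for each of Mup1 and Mup3. Without slide 141 the difference was -0.46 for Mup1 (unadjusted p 0.118) and -0.50 for Mup3 (unadjusted p 0.0331), and with the dyes as labelled it was -0.16 and -0.17 (unadjusted p 0.788 and 0.858). For Mup4 it was -0.17 without the slide and -0.03 as labelled, and for Mup5 0.02 and 0.04. When each pup was left out in turn, the unadjusted p of Mup3 stayed below 0.05 in 10 of 10 fits (0.00286 to 0.0182), that of Mup1 in 4 of 10 (0.00387 to 0.0958) and that of Mup4 in 1 of 10, the fit without control 616 (p 0.0165). Median centring ended the unadjusted calls of both Mup1 and Mup3, and the liver channel alone ended that of Mup3 only. With median centring in place of loess the difference was -0.39 for Mup3 (unadjusted p 0.206) and -0.58 for Mup1 (unadjusted p 0.0891). In the liver channel alone, without slide 141, it was -0.41 for Mup3 (unadjusted p 0.0636) and -0.67 for Mup1 (unadjusted p 0.0477), and the Mup4 difference was 0.01.

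The ratios of the Mup probes were positively correlated over the arrays. Over the 10 arrays Pearson's r was 0.89 between Mup1 and Mup4, 0.73 between Mup1 and Mup3 and 0.51 between Mup3 and Mup4. After each group was centred on its mean these were 0.86, 0.54 and 0.27. The control pups 881 and 832 and the hypothyroid pup 891 had the 3 highest Mup1 ratios and 3 of the 4 highest Mup4 ratios. The correlations of Mup5 with the other probes over 10 arrays were 0.43 to 0.59. After centring they were 0.62 with Mup1, 0.52 with Mup3 and 0.62 with Mup4. These exceeded the 0.27 between Mup3 and Mup4, although Mup5 was close to background. Whether the correlations come from the genes or from the arrays was not tested. All these values come from the same 10 arrays and share the reference, and some share a slide, and they are given as a description.

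The genes outside the family whose pattern was most like that of Mup1 were picked by Pearson's r over 9 arrays, without control 616, among 32073 probes, of which only those with a gene symbol were named. They ranked 1, 2, 6, 8 and 9 of all 32073 and were Zfp672, a zinc finger protein (r = 0.97), Vrk1, a nuclear kinase (0.96), Cox19, a factor for cytochrome oxidase assembly (0.94), Cdv3 (0.94) and Dnaja1, a heat shock co-chaperone (0.94). With control 616 included r was 0.97 for Zfp672, 0.48 for Vrk1, 0.75 for Cox19, 0.92 for Cdv3 and 0.80 for Dnaja1. The group differences of these genes were small, from -0.22 for Zfp672 to -0.07 for Cdv3, with adjusted p from 0.695 to 0.840 in limma.

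Growth hormone signalling to Stat5 is the main known input to hepatic Mup genes. Of 11 genes of this route tested, 0 passed the threshold and 2 had an unadjusted p below 0.05, both lower in hypothyroid pups, where 4.08% of all probes were. Over all 14659 genes at 1 probe per gene, the basis of this and the later lists, 733 were lower and 551 higher without adjustment. The list median was -0.02, against -0.02 over all 14659 genes. The 2 genes of the list were the transcription factors Stat5a and Stat5b. The log2 ratio of Stat5a was 0.64 to 1.37 (median 0.89) in controls and 0.14 to 0.67 (median 0.46) in hypothyroid pups, a difference of -0.50 (SE 0.15, unadjusted p 0.00705, adjusted p 0.486 in limma). Stat5b differed by -0.37 (SE 0.15, unadjusted p 0.0260, adjusted p 0.625) and by -0.15 (SE 0.11, unadjusted p 0.189) at a dimmer probe. The groups overlapped for Stat5a and for the brighter Stat5b probe. The receptor Ghr differed by 0.26 (SE 0.19, adjusted p 0.754) and Igf1, the main hepatic product of growth hormone action, by 0.26 (SE 0.24, adjusted p 0.795). Without control 616 these were 0.07 for Ghr and 0.000872 for Igf1.

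Of 11 transcription factors tied to Mup genes, which included the thyroid hormone receptors and the glucocorticoid and androgen receptors, 0 passed the threshold. At an unadjusted p below 0.05, 1 was lower and 1 was higher in hypothyroid pups, where 3.35% of all probes were higher, and the list median was 0.03. Cebpb, a factor of hepatic stress and acute phase responses, had a log2 ratio of -0.60 to 1.33 in controls and -1.32 to -0.53 in hypothyroid pups, a difference of -1.11 (SE 0.31, unadjusted p 0.00413, adjusted p 0.416 in limma). Onecut1, a hepatic homeobox factor, differed by 0.47 (SE 0.19, unadjusted p 0.0301, adjusted p 0.637). Without control 616 the Onecut1 difference was 0.34 (unadjusted p 0.0549) and that of Cux2 was -0.31 (unadjusted p 0.0472), so 2 were lower and 0 higher. The probes of the glucocorticoid receptor Nr3c1 disagreed in direction. The brightest differed by 0.08, and the others by -0.08 and -0.34 (unadjusted p 0.0109, adjusted p 0.530 for the last). The receptors Thra and Thrb differed by -0.02 each, with adjusted p of 0.976 and 0.977, and by 0.05 and 0.04 without control 616.

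Mup genes are among the liver genes that are higher in adult males. Of 15 other male-biased liver genes tested, 0 passed the threshold, 1 was lower and 2 were higher at an unadjusted p below 0.05, beside 4.08% lower and 3.35% higher over all probes, and the list median was 0.11 (0.07 without control 616). Gstp1, a glutathione transferase, had a log2 ratio of -0.53 in controls and -0.00124 in hypothyroid pups, a difference of 0.53 (SE 0.14, unadjusted p 0.00287, adjusted p 0.363 in limma). Elovl3, a fatty acid elongase, had ratios of 0.00457 to 0.72 in controls and -0.32 to -0.13 in hypothyroid pups, a difference of -0.43 (SE 0.13, unadjusted p 0.00596, adjusted p 0.469). The groups of both genes did not overlap, which held for 2.07% of all probes. Of 16 female-biased liver genes tested, 0 passed the threshold and 1 was higher without adjustment (3.35% over all probes), with a list median of 0.10. Without control 616 the median was -0.04, with 1 lower and 1 higher, so the sign of this median rested on that array. The gene that was higher with all 10 arrays was Acot3, a peroxisomal thioesterase. It had a difference of 1.01 (SE 0.24, unadjusted p 0.00140, adjusted p 0.297 in limma), or 0.79 without control 616. The steroid hydroxylase Cyp3a44 followed at 0.66 (SE 0.36, adjusted p 0.718, or 0.26 without control 616), but its second, dimmer probe was at -1.09 (SE 0.27, unadjusted p 0.00212, adjusted p 0.322), so the probes of Cyp3a44 disagreed in direction.

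The thyroid hormone response genes, a list for the treatment itself, had a median of -0.60. Of 7 tested, 0 passed the threshold and 5 were lower at an unadjusted p below 0.05, where 4.08% of all probes were. Bcl3, a nuclear factor kappa B cofactor induced by thyroid hormone in liver, had a log2 ratio of 0.39 to 1.28 in controls and -0.33 to 0.15 in hypothyroid pups, a difference of -0.85 (SE 0.16, unadjusted p 3.07e-04, adjusted p 0.167 in limma). Me1, the cytosolic malic enzyme, differed by -0.48 (SE 0.11, unadjusted p 0.00104, adjusted p 0.275). Without control 616 the list median was -0.78.

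Other lipocalins gave no common direction. Of 23 listed genes 14 were tested, 0 passed the threshold and 1 was lower without adjustment (4.08% over all probes), with a median of 0.06. Ptgds, a lipocalin that is also a prostaglandin synthase, had ratios of -0.38 to 0.16 in controls and -0.75 to -0.40 in hypothyroid pups, a difference of -0.43 (SE 0.10, unadjusted p 0.00185, adjusted p 0.316 in limma). The groups did not overlap for Ptgds and Lcn10, 2 of the 14, beside 2.07% of all probes. The Lcn10 ratios lay near 0 (mean 0.06 in controls and -0.07 in hypothyroid pups, unadjusted p 0.0638). Apom, the apolipoprotein of this fold, differed by 0.34 (SE 0.16, unadjusted p 0.0523, adjusted p 0.674), or by 0.19 without control 616.

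**Figure D3:**
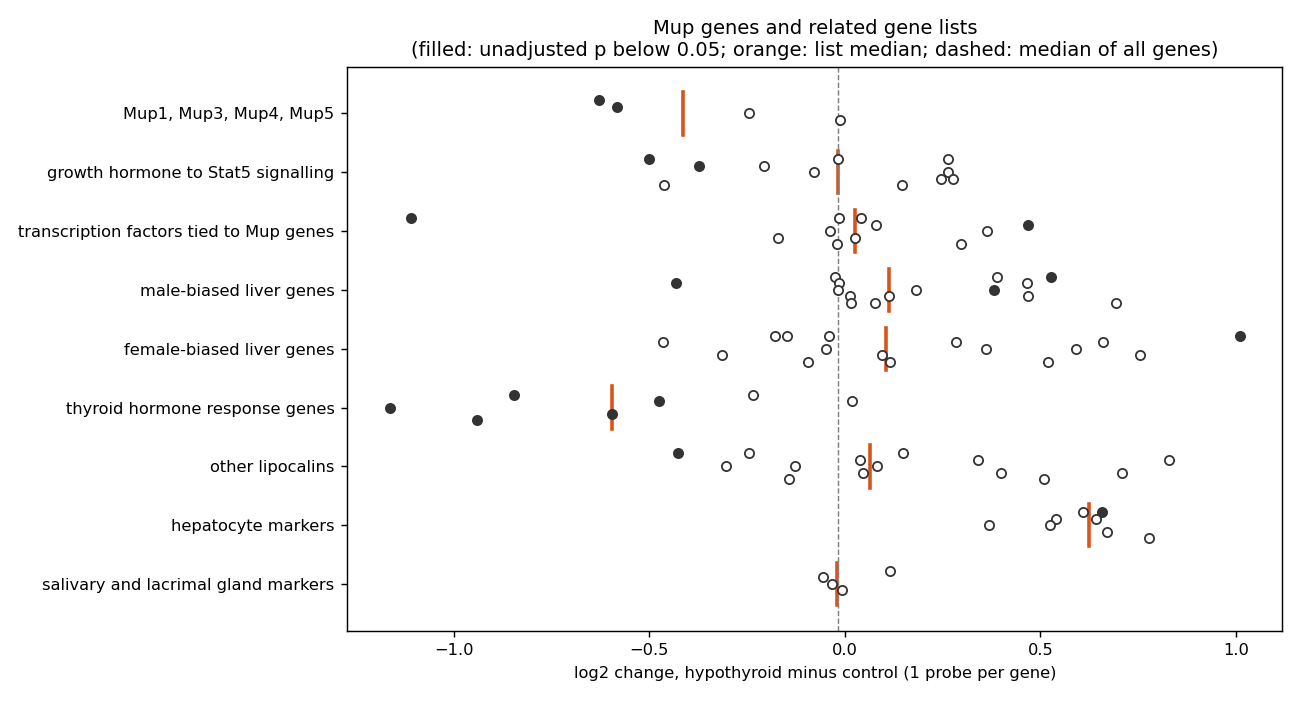
Log2 difference, hypothyroid minus control, of each gene in the Mup set and in related gene lists, with 1 probe per gene. Filled points had an unadjusted p below 0.05, orange bars are list medians and the dashed line is the median of all genes. The medians lie at -0.41 for the Mup set, -0.60 for the thyroid hormone response genes and -0.02 for the growth hormone list. Within the growth hormone list Stat5a lies at -0.50 and Stat5b at -0.37. A link between the lists was not tested.

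Markers of other cells in the tissue were read on the same arrays, since fewer cells of a type and less RNA per cell cannot be told apart in whole liver. The 8 hepatocyte markers all had a higher mean in hypothyroid pups, with a median difference of 0.62 and 0 past the threshold. Only Alb had an unadjusted p below 0.05 (0.66, SE 0.29, unadjusted p 0.0444, adjusted p 0.662 in limma), where 3.35% of all probes were higher. Ahsg followed at 0.54 (SE 0.26). Without control 616, whose hepatocyte mean of 2.66 was the lowest of the 10 arrays, the median was 0.32. Alb was then at 0.48 (unadjusted p 0.0872), so its unadjusted call ended. The lower Mup1 and Mup3 means thus stood beside hepatocyte markers with higher means. Of 15 pancreatic acinar markers 11 were lower without adjustment (4.08% over all probes) and 0 passed the threshold, led by Cela1 (-2.48, SE 0.86) and Cela2a (-1.81, SE 0.63). The mean log2 ratio over this list was 3.89 and 4.01 in controls 832 and 522, 2.36 in control 616, 0.73 and 0.79 in controls 391 and 881, and 0.65 to 0.78 in hypothyroid pups. Of the controls with the most acinar signal, 832 had the highest Mup1 and Mup3 ratios, while 522 had a Mup1 ratio of 0.74 and a Mup3 ratio of 1.56, among the lower controls.

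Of 8 skeletal muscle markers 2 were lower without adjustment (Mylpf, -0.26, SE 0.10, and Acta1, -0.63, SE 0.26), beside 4.08% over all probes. The list had a median of -0.24 and a mean ratio of -0.93 to -0.31 in controls and -1.04 to -0.91 in hypothyroid pups. None of 5 Kupffer cell markers (median 0.20, led by Adgre1 at -0.22 and Clec4f at 0.29), 5 cholangiocyte markers (median -0.41, led by Krt19 at -0.61 and Krt7 at -0.30) and 5 erythroid markers (median 0.005, led by Hba-a1 at 0.54) had an unadjusted p below 0.05. Without control 616 the median was -0.05 for the Kupffer cell list, -0.12 for the cholangiocyte list (Krt19 at -0.28) and -0.14 for the muscle list, with Hba-a1 at 0.25 and Clec4f at -0.01. Of 12 salivary and lacrimal gland markers, tissues that make Mup4 and Mup5, 11 had a probe, 4 of these were above the background limit on none of the 10 arrays and 4 were tested, with a median of -0.02, or 0.01 without control 616 (Lpo at 0.12 and Bpifa2 at -0.06 had the smallest p). The part of these markers in the Mup values was not tested.

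**Figure D4:**
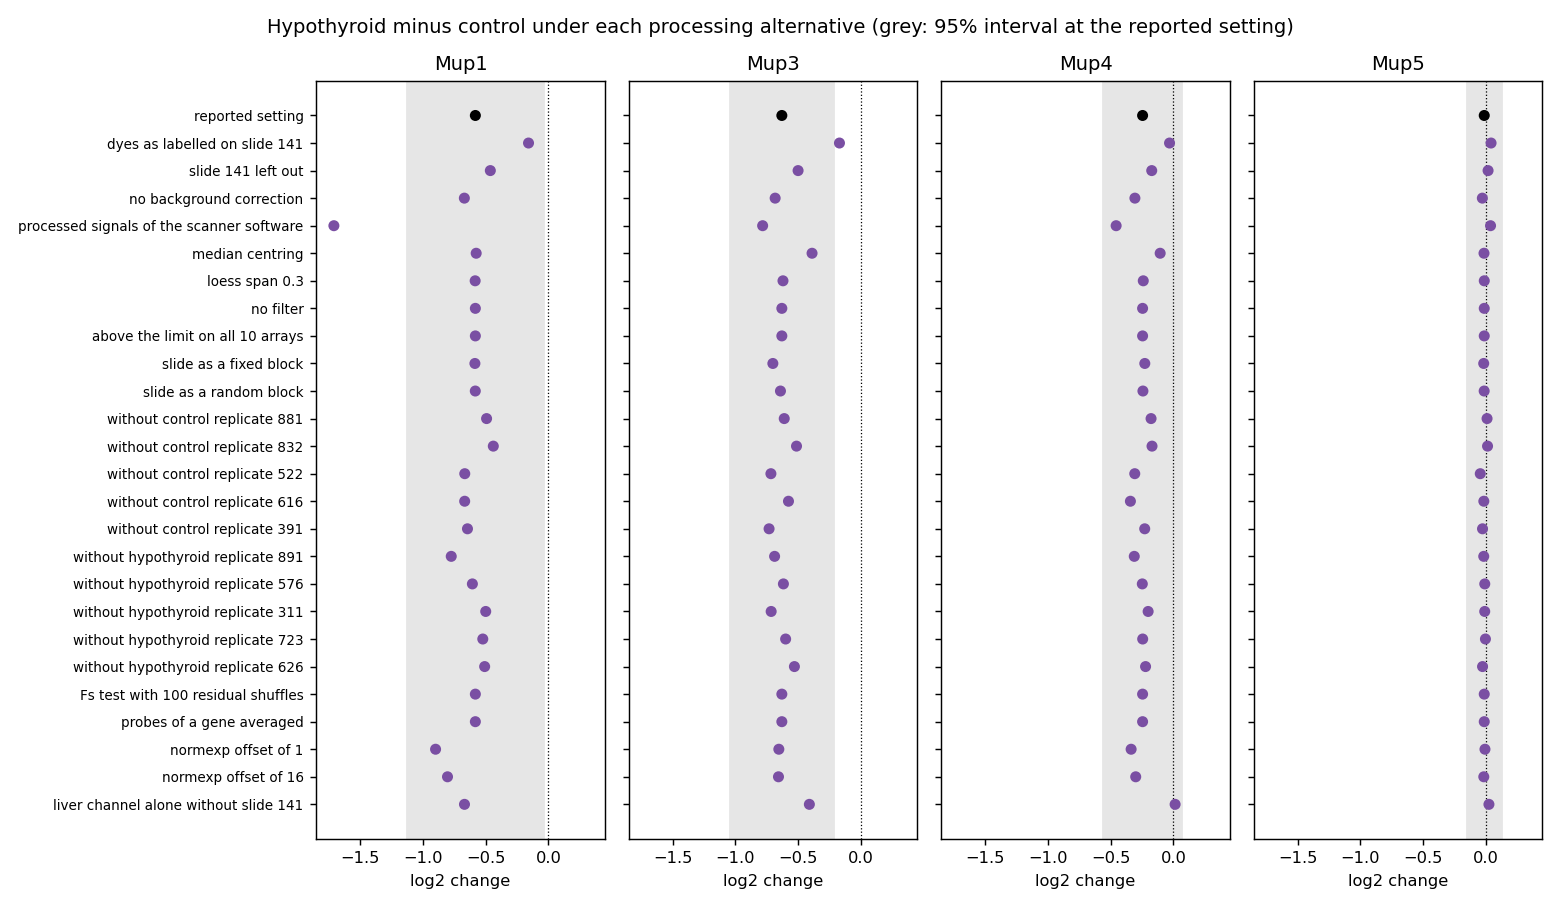
Log2 difference, hypothyroid minus control, of each Mup probe at the reported setting (black) and under 25 other settings (purple), with the 95% interval at the reported setting in grey. Mup1 and Mup3 lie below 0 in all 25, Mup4 in 24 and Mup5 in 19. The settings share arrays, and some (the filters, the Fs test and averaged probes) could not move the difference. The counts are therefore not separate tests.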

How the data were processed

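Liver mRNA of 5 control and 5 hypothyroid pups was read on 2-colour Agilent arrays. The authors deposited the Feature Extraction output of each array, in which the median signal, local background and processed signal are intensities per spot. The TLDA files were not used. Groups and pup numbers came from the labels. Median signals were background-corrected (normexp, offset 50) and loess-normalized within arrays (span 0.2) in limma 3.58.1 (R 4.3.3), with the channels of slide 141 exchanged. Control spots and outlier flags were left out and repeat spots averaged. Probes whose liver signal was above the limit (5% trimmed mean plus 3 trimmed SDs of 153 negative control spots) on at least 4 of 5 arrays of a group were tested (32074 of 41174) with lmFit and eBayes and Benjamini-Hochberg adjustment at 0.05. Accessions gave a symbol to 23374 probes, and lists used the brightest probe of a gene. The authors' Fs test was run as an alternative. The test steps were tested on simulated data. Of 25 listed genes with several tested probes, 6 had probes of both signs. Gene lists and members were chosen with earlier results of these data known. Named were all Mup probes, the 5 genes most correlated with Mup1, and in each list every gene past the threshold or else the 2 with the smallest p, of which 1 is not reported here. Ghr, Igf1, Thra, Thrb, Nr3c1, Cux2 and Lcn10 were added after their values were seen. Array number limits the precision.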

Additional observations from a re-analysis of the deposited data

Results flagged for a closer look

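In 22 groups of 5 arrays, the 8 groups of Mup values and 14 of marker lists, the gap from the most distant array to its nearest neighbour was set against the whole range of the group. No Mup group had an array far from the rest. In 3 marker groups 1 array stood far from the others, where chance is expected to give about 1 in 20 groups. The mean log2 ratio of the cholangiocyte markers was -0.63 in control 616 and -1.91 in the next highest control, a gap of 0.752 of the range. The mean of the hepatocyte markers was 4.27 in hypothyroid 576 and 4.72 in the next lowest hypothyroid pup, a gap of 0.797 of the range. The mean of the salivary and lacrimal gland markers was 0.26 in control 881 and 0.18 in the next highest control, a gap of 0.788 of the range. Control 616 and hypothyroid 576 were also the array with the lowest correlation with other slides and an array with exchanged channels. The part of these arrays in the Mup values is given by the fits that leave each out.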

How the results depend on the processing

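Over 25 alternatives the Mup1 difference was -1.71 to -0.16 (adjusted p 0.426 to 1) and the Mup3 difference -0.78 to -0.17 (adjusted p 0.295 to 1), lower in hypothyroid pups in all 25. No Mup probe passed the threshold in any of them. The alternatives share arrays. A changed filter, the Fs test and averaging the probes of a gene could alter only the p, not the difference. The count of signs is therefore no set of separate tests. Mup4 was -0.46 to 0.01, with the sign turned in the liver channel alone (0.0134). Mup5 turned sign in 6, at 0.0405 with the dyes as labelled, 0.0167 without slide 141, 0.0364 with the processed signals, 0.0236 in the liver channel alone, 0.00860 without control 881 and 0.0125 without control 832. Leaving out 1 pup gave -0.77 to -0.44 for Mup1, -0.73 to -0.51 for Mup3, -0.34 to -0.17 for Mup4, -0.0454 to 0.0125 for Mup5 and -0.50 to -0.30 for their median.

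The 2 probes past the threshold over the whole array became 0 with the dyes as labelled (110 unadjusted), without slide 141 (2389 unadjusted), with slide as a fixed block (2236 unadjusted), by the Fs test with 100 residual shuffles (2695 unadjusted) and in the liver channel alone (1266 unadjusted), 1 with the processed signals, median centring or a normexp offset of 1, 6 with an offset of 16 and 14 with slide as a random block. Leaving out 1 pup gave 1 to 30, the 30 without control 616, where Gpd2 of the thyroid hormone response list passed (adjusted p 0.0444). The cause was not tested. Median centring moved the median of all probes from -0.01 to 0.09. The offsets and the liver channel alone were chosen after seeing the data. No paired analysis was possible because the pups on the arrays carry no shared replicate number. The shared numbers belong to the TLDA samples, which read no Mup transcript. Slide was used as the block instead.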
